A study of Apis mellifera with 2 samples.

Results

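The curated honey bee mRNAs are the transcripts whose RefSeq identifiers start with NM, and not those held as predicted models. For the honey bee the records with NM are mainly of genes that had been cloned and studied one at a time. The rule reads identifiers and gene names and no counts. Of the 5924 mRNAs in the table, 76 were curated. The 11 records of Jhe, JHBP-1, Cyp314a1, Usp, Br-c, Mblk-1, TpnCIIa, TpnCIIb, TpnI, TpnT and Argk were set aside, which left 65, and values are given for 64 of them. A gene of the RefSeq table of Amel_HAv3.1 was matched to 62 of the 64 by identifier, of which 56 carried a symbol and 6 a LOC number only, and the other 2 are given by their identifiers.

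The samples were queen larvae of Apis mellifera ligustica ZND No.1, a breed kept for its high yield of royal jelly, all grafted into plastic queen cells and reared by queen-breeding colonies. The miR-184 group was given 5 µl of a miR-184 solution of 100 ng/µl for each larva from 26 to 32 hours after hatching, and the control group 5 µl of DEPC-treated water, with the feeding repeated on the next day. Each experimental group held 20 to 25 queen cells, and the number of larvae behind each RNA sample is not given in the sources used here. The paper does not state whether whole larvae were taken, nor their age at collection. Each condition was sequenced as 1 library, so that no difference has a replicate check. An effect of miR-184 cannot be told apart from any other difference between the larvae, and fewer cells of a type cannot be told apart from less RNA per cell.

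A miRNA binds mRNAs through a short seed and lowers their stability or translation, and miR-184 is a conserved miRNA that is known in Drosophila for its part in the female germline. Queen larvae eat royal jelly, grow fast and store amino acids in hexamerins, proteins that the fat body secretes into the haemolymph for use in the pupa. The curated set also covers small carrier proteins of the odorant binding family, the major royal jelly proteins that nurse bees secrete, enzymes of immunity and sugar digestion, and receptors of the nervous system.

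In tag profiling an mRNA is counted by short tags beside an Nla III site near its poly(A) end, so that counts do not grow with transcript length and were not divided by it. An mRNA without such a site or without a unique tag can be missed, and the sites of each mRNA were not counted here. Rare below therefore means few tags, which need not mean little mRNA. Levels are given as TPM, tags per 1000000 tags of the library. The libraries held 1353258 (miR-184) and 1338190 (control) tags, and a single tag stood for 0.739 and 0.747 TPM. The smallest count above 0 was 2 in both, so that a listed 0 may be 0 or 1 tag. Ratios are miR-184 over control after scaling to these totals. Intervals are exact 95% Clopper-Pearson intervals, which cover counting error only.

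The curated mRNAs took 6.50% of the miR-184 tags (interval 6.46% to 6.54%) and 6.20% of the control tags (6.16% to 6.24%). This share was spread very unevenly. The 5 most abundant of them held 95.6% of the set's tags in the miR-184 library and 95.1% in the control library, and without HEX70b the set took 2.19% and 1.70%. The median curated mRNA had 17.5 and 13 tags, where the median over all mRNAs was 21 and 23. A level of at least 10 TPM in 1 library or the other was reached by 34 of the 64 (53.1%), against 62.6% of all mRNAs, and 3 of them stood among the 100 most abundant mRNAs of each library. The other 30 lay under 10 TPM in both.

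**Figure D1:**
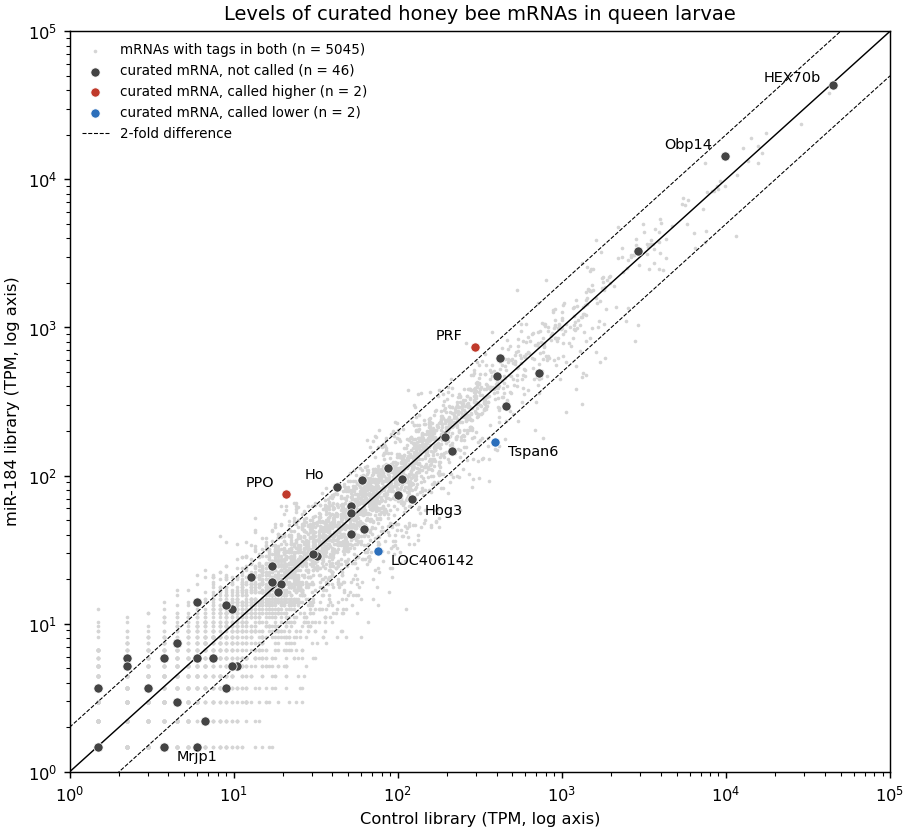
Level of mRNAs with tags in both libraries, control on the horizontal and miR-184 on the vertical log axis, in TPM. Grey points are mRNAs of the whole table and large points the curated ones, which run from HEX70b at 43061 and 44976 TPM down to 2 tags in each library. The solid line marks equal levels and the dashed lines a 2-fold difference, beyond which the called PRF, PPO, Tspan6 and LOC406142 lie, beside some rare mRNAs that were not called.

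The labelled stage was set against markers. Of 4 hexamerin markers of the larval fat body, HEX70b was in the table and was the most abundant mRNA of both libraries. Of 8 listed markers of the head glands of adult workers, 3 were in the table (Mrjp1, Mrjp2 and Hbg3). Their summed level was 70.9 TPM in the miR-184 and 128 TPM in the control library, nearly all of it Hbg3. The jelly proteins among them had few tags, with 2 and 5 for Mrjp1 and a listed 0 and 2 for Mrjp2. Of 4 eye opsins, Uvop was in the table. The other markers of these lists, and 4 of the venom gland, were looked for by gene name and not matched. That need not mean that their mRNAs were absent.

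The thresholds of the study were kept. An mRNA was called when its levels differed more than 2-fold and its p was under 0.01. The p is that of the exact test of Audic and Claverie for tag counts, taken in both directions and named the exact tag test from here on. Of all 5924 mRNAs, 534 were called in this way, 137 higher and 397 lower. That is more than the paper reports at the same thresholds, and the reason was not tested. By this rule 6 of the 64 curated mRNAs (9.38%) were called, close to the 9.01% of all mRNAs. Of the 34 with at least 10 TPM, 4 (11.8%) were called, beside 12.8% of all mRNAs of that level. The 3 called higher were PPO, PRF and Ip3k, beside 2.31% of all mRNAs called higher. The 3 called lower were Tspan6, LOC406142 and NM_001011569.1, beside 6.70% of all mRNAs called lower. All 6 were also called with a Benjamini-Hochberg adjusted p under 0.01 over the 5924 mRNAs, where 6.43% of all mRNAs were. Counts of replicate libraries scatter more than tag counting allows, and a negative binomial exact test can take this in by a preset coefficient of variation. All 6 passed it at 0.2, where 4.42% of all mRNAs differed 2-fold and passed, and only Ip3k at 0.4, where 0.371% did. Ip3k rests on 13 tags against a listed 0, under 10 TPM in both libraries, and this test took that 0 as listed.

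The ratio threshold decided most of the outcome. At p under 0.01 and any ratio, 17 curated mRNAs differed, 26.6% of the set where 20.5% of all mRNAs did. Of these, 9 were higher, beside 8.83% of all mRNAs, and 8 were lower, beside 11.6%. Among the 23 curated mRNAs that averaged 50 tags or more, 15 (65.2%) differed, where 42.1% of the 2022 such mRNAs did. Of these, 8 were higher, beside 21.3% of the 2022, and 7 were lower, beside 20.8%. The same ratio gives a lower p at a higher count, and the groups were not matched for count. A mean of 50 to 250 tags was found for 13 of the 23 and 1376 of the 2022, and the shares were not compared by a test. From 50 to 1000 tags the ratios of the curated mRNAs were also somewhat wider apart than those of all mRNAs at a like level. The median size of the log2 ratio was 0.51 for the 13 curated mRNAs with a mean of 50 to 250 tags and 0.35 over the 1376 mRNAs of that level. It was 0.58 for 7 against 0.32 over 440 mRNAs from 250 to 1000 tags. Above 1000 tags it was 0.18 for 3 curated mRNAs against 0.28 over 206 mRNAs. These differences were not tested. The median log2 ratio was -0.07 over the 64, or -0.02 with every listed 0 raised to the floor of 3 tags, and -0.02 over all mRNAs. It was 0.04 and 0.01 among those with at least 10 TPM in 1 library or the other, some of which passed through 1 library only, and -0.06 and 0.04 among those that averaged 50 tags or more.

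**Figure D2:**
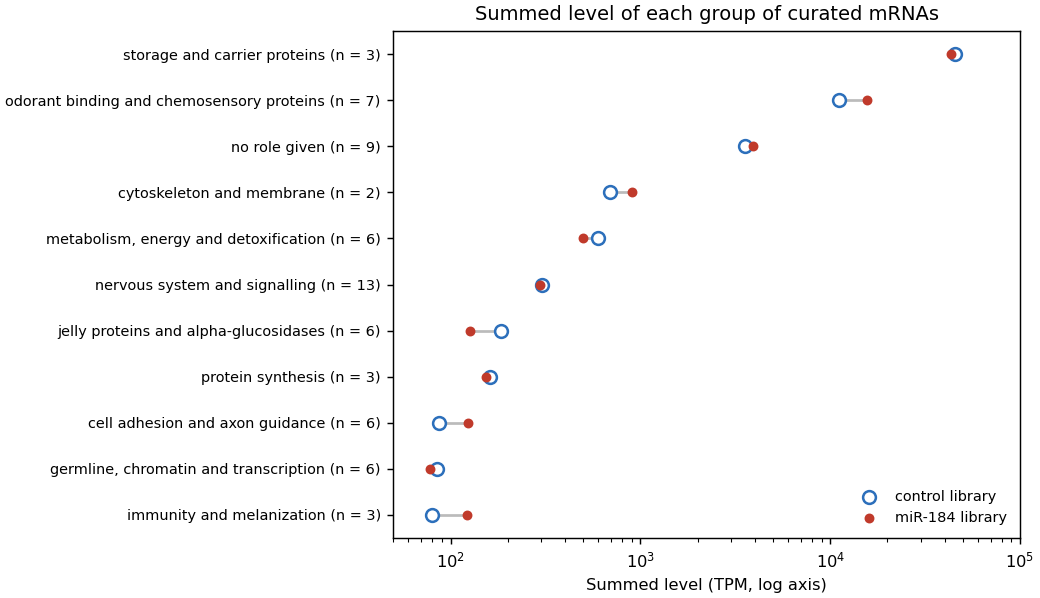
Summed level in TPM (log axis) of the curated mRNAs of each role, with the number of mRNAs in brackets, in the control library (open circles) and the miR-184 library (filled circles). The shift in the most abundant groups was from 45204 to 43228 TPM for storage and carrier proteins and from 11077 to 15561 TPM for odorant binding and chemosensory proteins. Each of these sums is mostly 1 mRNA, HEX70b (44976 to 43061 TPM) and Obp14 (9912 to 14424 TPM). Not every mRNA of the second group was higher, and CSP3 was lower.

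Storage and carrier proteins made up the largest part of the set. HEX70b, the hexamerin, had 58273 tags in the miR-184 library against 60187 in the control library, which is 43061 and 44976 TPM. Its log2 ratio was -0.06 (interval -0.08 to -0.05; exact tag test, p = 6.99e-14). The interval left out 0 only because the count is so high: the robust SD of the log2 ratio over the 206 mRNAs above 1000 tags was 0.38, and 38.0% of the others among them were lower by at least as much as HEX70b. Tsf1, the transferrin that carries iron in the haemolymph, had 198 and 287 tags, or 146 and 214 TPM, and was 1.47-fold lower in the miR-184 library (log2 ratio -0.55, interval -0.82 to -0.29), short of the ratio threshold. Fabp, a fatty acid binding protein, had 28 and 17 tags with a log2 ratio of 0.70 and an interval from -0.22 to 1.67 that included 0.

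Odorant binding proteins are small secreted proteins that carry hydrophobic ligands, in the antenna and also in other tissues, and chemosensory proteins are a second family of such carriers. Of the 7 curated members, Obp14 and Obp15 were abundant and higher in the miR-184 library, CSP3 was abundant and lower, and the rest were rare. Obp14 was the second most abundant curated mRNA, with 19519 tags after miR-184 and 13264 after water, that is 14424 and 9912 TPM. It was 1.46-fold higher (log2 ratio 0.54, interval 0.51 to 0.57; exact tag test, p = 4.92e-248). Obp15 had 844 and 558 tags, or 624 and 417 TPM, and was higher by nearly the same factor (log2 ratio 0.58, interval 0.42 to 0.74; p = 1.10e-13 by the exact tag test). Of the other mRNAs of like level, 9.76% were higher by at least as much as Obp14 and 10.7% by at least as much as Obp15, and neither passed the negative binomial exact test at a preset variation of 0.2 (p = 0.189 and p = 0.167). No other annotated gene separates Obp14 and Obp15 in Amel_HAv3.1. Obp14 had 23.1 tags for each tag of Obp15 in the miR-184 library and 23.8 in the control library. The same comparison, put as a difference of their log2 ratios, is -0.04 (interval -0.20 to 0.12).

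Obp13 is the next gene on the other side of Obp14, and it had only 2 and 8 tags. Its log2 ratio of -2.02 lay below that of Obp14, and the difference between them, 2.56, had a counting interval from 0.23 to 5.83. By itself Obp13 did not differ beyond counting error (interval of its log2 ratio up to 0.31; exact tag test, p = 0.0628). CSP3 ran opposite to Obp14, with 665 and 967 tags, or 491 and 723 TPM. It was 1.47-fold lower (log2 ratio -0.56, interval -0.70 to -0.41; exact tag test, p = 1.16e-14). The interval of the log2 ratio of Obp14 minus that of CSP3, 0.95 to 1.25, left out 0, which follows from their separate intervals. Of the other mRNAs of its level, 13.4% were lower by at least as much as CSP3, which did not pass the negative binomial exact test at a preset variation of 0.2 (p = 0.184). Obp10 had 26 and 23 tags (log2 ratio 0.16, interval -0.71 to 1.04). Obp11, the gene next to Obp10, was listed at 0 in the miR-184 library and had 3 tags in the control library, and Obp1, known to bind queen pheromone in the antenna, had 2 tags and a listed 0. None of the 7 passed the ratio of 2 together with p under 0.01. Tags shared by closely related members would be missing from these counts, because only uniquely mapped reads were summed.

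The 3 mRNAs of protein synthesis showed no difference beyond counting error. EF1a-F2, a translation elongation factor, had 128 tags in the miR-184 library and 142 in the control library, which is 94.6 and 106 TPM (log2 ratio -0.17, interval -0.52 to 0.19; exact tag test, p = 0.346). IF-2mt, the mitochondrial initiation factor, had 76 and 69 tags with a log2 ratio of 0.12 (interval -0.37 to 0.61). RpL32, a ribosomal protein that is widely used as a reference gene in bees, had only 5 and 4 tags (log2 ratio 0.31, interval -1.91 to 2.64), so that it gives no check on the scaling.

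The curated mRNAs of the cytoskeleton and the membrane were both called, in opposite directions. PRF encodes profilin, which binds actin monomers and feeds filament growth, and had 1001 tags in the miR-184 library against 397 in the control library, which is 740 and 297 TPM. It was 2.49-fold higher (log2 ratio 1.32, interval 1.15 to 1.49; exact tag test, p = 6.03e-59). Of the 439 other mRNAs from 250 to 1000 tags, 4 (0.911%) were higher by at least as much. Tspan6 belongs to the tetraspanins, proteins with several membrane-spanning stretches that gather other membrane proteins, and had 228 and 524 tags, or 168 and 392 TPM. It was 2.32-fold lower (log2 ratio -1.22, interval -1.45 to -0.99; p = 1.49e-28 by the exact tag test), and 15 of the 439 (3.42%) were lower by at least as much. At a preset variation of 0.4 neither was called (negative binomial exact test, p = 0.122 for PRF and p = 0.155 for Tspan6).

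Of the 3 mRNAs of immunity, PPO showed the widest difference of all curated mRNAs with tags in both libraries and at least 10 TPM. PPO encodes prophenoloxidase, the inactive form of the enzyme that makes melanin in wound healing, in defence and in the cuticle. It had 102 tags after miR-184 and 28 after water, that is 75.4 and 20.9 TPM, and was 3.60-fold higher (log2 ratio 1.85, interval 1.23 to 2.51; exact tag test, p = 6.71e-11). None of the 1375 other mRNAs with a mean of 50 to 250 tags was higher by as much. The call was lost at a preset variation of 0.4 (negative binomial exact test, p = 0.0450). Def1, the antimicrobial peptide defensin, had 55 and 69 tags with a log2 ratio of -0.34 (interval -0.88 to 0.19). The log2 ratio of PPO exceeded that of Def1 by 2.19 (interval 1.35 to 3.04). With PPO picked for its wide ratio, this follows from their separate intervals and is no further result. The wider list of immune and melanization genes, chosen with results known, also held LOC406142, which is described with the mRNAs without a role and was called lower, opposite to PPO. Dl, the bee relative of the Drosophila transcription factor dorsal in the Toll pathway, had 8 and 10 tags (log2 ratio -0.34).

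**Figure D3:**
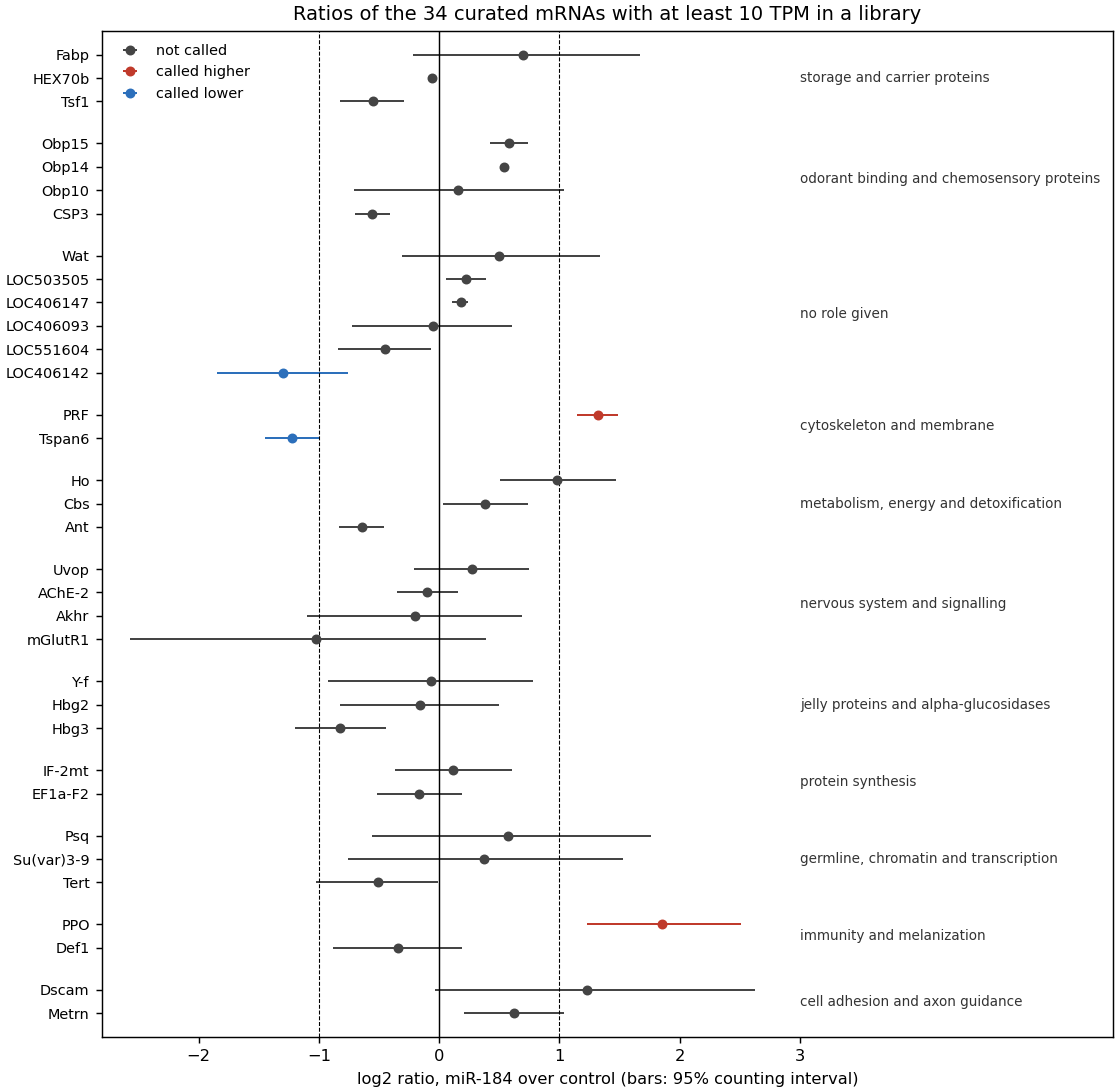
Log2 ratio of miR-184 over control for the 34 curated mRNAs with at least 10 TPM in a library, grouped by role. Bars are 95% counting intervals, the solid line is a ratio of 1 and the dashed lines are ratios of 2. PPO and PRF lie above the upper line, Tspan6 and LOC406142 below the lower one, and Dscam and mGlutR1 pass a dashed line with intervals that include 0.

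Royal jelly proteins and the yellow proteins belong to 1 family, and alpha-glucosidases split sucrose in food and nectar. Adult worker bees secrete jelly proteins and alpha-glucosidase from the head glands. In the larvae the jelly protein records were rare. Mrjp1, the main protein of royal jelly, had 2 tags in the miR-184 and 5 in the control library, Mrjp2 had a listed 0 and 2 tags, and Mrjp8 had 10 and 6. Y-f, a yellow protein, had 25 and 26 tags (log2 ratio -0.07, interval -0.92 to 0.78). Hbg3, the alpha-glucosidase known from honey, had 94 and 164 tags, or 69.5 and 123 TPM, and was 1.76-fold lower in the miR-184 library (log2 ratio -0.82, interval -1.20 to -0.44; exact tag test, p = 8.01e-06), short of the ratio threshold. Of the 1375 other mRNAs of its level, 10.3% were lower by at least as much. Hbg2, a second alpha-glucosidase, had 39 and 43 tags (log2 ratio -0.16, interval -0.82 to 0.50). The difference between Hbg3 and Hbg2, -0.66, had an interval from -1.43 to 0.11, so that the enzymes could not be shown to differ in their ratio at this depth.

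Among mRNAs of metabolism, energy and detoxification, Ho lay just inside the ratio threshold and was not called. Ho encodes heme oxygenase, which breaks down heme, and had 114 tags in the miR-184 library against 57 in the control library, which is 84.2 and 42.6 TPM. It was 1.98-fold higher (log2 ratio 0.98, interval 0.51 to 1.47; exact tag test, p = 2.16e-05), and 43 of the 1375 other mRNAs of its level (3.13%) were higher by at least as much. Ant, the carrier that exchanges ADP and ATP across the inner mitochondrial membrane, had 397 and 612 tags, or 293 and 457 TPM, and was 1.56-fold lower (log2 ratio -0.64, interval -0.83 to -0.46; exact tag test, p = 3.22e-12). Of the other mRNAs of like level, 11.2% were lower by at least as much as Ant. It did not pass the negative binomial exact test at a preset variation of 0.2 (p = 0.132). Cbs, the cystathionine beta-synthase of sulphur amino acid metabolism, had 153 and 116 tags with a log2 ratio of 0.38 (interval 0.03 to 0.74). Vha16, a subunit of the proton-pumping V-ATPase, was listed at 0 in the miR-184 library and had 6 tags in the control library, at least 2.02-fold lower when the 0 is set to the floor of 3 tags, with a log2 ratio of at most -0.25 by the counting interval. It did not pass the threshold (exact tag test, p = 0.0150). The cytochrome P450 records were rare, with 5 and 12 tags for Cyp4g11 and with 3 tags and a listed 0 for Cyp6as5.

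The nervous system and signalling group was the largest, with 13 mRNAs, and most of them had few tags. AChE-2, an acetylcholinesterase, was the most abundant with 247 tags in the miR-184 library against 261 in the control library, which is 183 and 195 TPM (log2 ratio -0.10, interval -0.35 to 0.16; exact tag test, p = 0.455). Uvop, the ultraviolet opsin, had 84 and 69 tags (log2 ratio 0.27, interval -0.21 to 0.75). Akhr, the receptor of adipokinetic hormone, which mobilises fat body stores, had 22 and 25 tags (log2 ratio -0.20). The metabotropic glutamate receptor mGlutR1 had 7 and 14 tags, and its ratio of 2.02 came with an interval of the log2 ratio from -2.57 to 0.39. For none of these 4 did the libraries differ beyond counting error.

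Ip3k, the kinase that phosphorylates inositol trisphosphate, was the exception in this group. It had 13 tags in the miR-184 library and was listed at 0 in the control library, at least 4.29-fold higher when the 0 is set to the floor of 3 tags, with a log2 ratio of at least 1.59 by the counting interval (exact tag test, p = 2.63e-04). Taking the listed 0 as 1 tag, a setting chosen after seeing the data, the p was 0.00196. The other signalling mRNAs stayed at 13 tags or fewer. NOS, nitric oxide synthase, had 7 tags in the miR-184 and 13 in the control library. The subunit nAChRa8 of the nicotinic acetylcholine receptor had 10 and 6, the glutamate receptor subunit Nmdar1 had 7 and 3 and the GABA transporter Gat-1B had 5 and 2. Pburs, a subunit of the hormone bursicon that hardens the new cuticle, had a listed 0 and 4 tags. The cGMP-dependent kinase For, named after the foraging gene, and the glutamate transporter Eaat-2 had a listed 0 and 3 tags each. The guanylyl cyclase subunit sGCbeta-3 had a listed 0 and 2 tags.

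Cell adhesion and axon guidance held 6 mRNAs. Metrn, named after meteorin, a secreted factor known in mice for its action on neurites, had 126 tags after miR-184 and 81 after water, that is 93.1 and 60.5 TPM. It was 1.54-fold higher (log2 ratio 0.62, interval 0.21 to 1.04; exact tag test, p = 0.00281), short of the ratio threshold. Of the other mRNAs of like level, 11.3% were higher by at least as much as Metrn. It did not pass the negative binomial exact test at a preset variation of 0.2 (p = 0.184). Dscam, an adhesion molecule that in Drosophila is spliced into very many forms, had 19 and 8 tags and a ratio of 2.35 without passing the test (exact tag test, p = 0.0559). EphR, the Eph receptor kinase, had 3 and 9 tags, Abscam had 8 in both, uzip, named after Drosophila unzipped, had 8 and 5, and Fstl5, a follistatin-like protein, had 4 and 6.

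Among records of germline, chromatin and transcription genes only Tert had more than 18 tags in a library, and none was called. Tert, the catalytic part of telomerase, led them with 59 tags in the miR-184 library against 83 in the control library, which is 43.6 and 62.0 TPM (log2 ratio -0.51, interval -1.02 to -0.01; exact tag test, p = 0.0378). Su(var)3-9, a histone methyltransferase, had 17 and 13 tags, and Psq, named after the Drosophila transcription factor pipsqueak, had 18 and 12. The germ cell helicase vas had 8 and 3 tags, c-mos, a kinase of oocyte meiosis in other animals, had 3 tags and a listed 0, and Twi, the mesoderm factor twist, had a listed 0 and 2 tags.

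For 9 curated mRNAs no role is given, because neither the table of gene names nor the paper names one or because the role was not certain. LOC406142 had 42 tags in the miR-184 library against 102 in the control library, which is 31.0 and 76.2 TPM, and was 2.46-fold lower (log2 ratio -1.30, interval -1.85 to -0.76; exact tag test, p = 3.02e-07). Of the 1375 other mRNAs of its level, 62 (4.51%) were lower by at least as much, and the call was lost at a preset variation of 0.4 (negative binomial exact test, p = 0.151). NM_001011569.1 was listed at 0 in the miR-184 library and had 11 tags in the control library, at least 3.71-fold lower when the 0 is set to the floor of 3 tags, with a log2 ratio of at most -1.34 by the counting interval (exact tag test, p = 4.56e-04, or 0.00321 with the listed 0 taken as 1 tag). At a preset variation of 0.4 the negative binomial exact test gave p = 0.0117, which missed the threshold of 0.01.

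LOC406147 and LOC503505, the most abundant records without a role, differed little between the libraries. LOC406147 had 4430 and 3880 tags, or 3274 and 2899 TPM (log2 ratio 0.18, interval 0.11 to 0.24; exact tag test, p = 3.50e-08), and LOC503505 had 639 and 541 tags, or 472 and 404 TPM (0.22, interval 0.06 to 0.39; p = 0.00847). LOC551604 had 100 and 135 tags (log2 ratio -0.45, interval -0.84 to -0.07), Wat had 33 and 23 (0.50) and LOC406093 had 40 and 41 (-0.05). LOC406146 had a listed 0 and 4 tags, and NM_001011651.1 had 2 tags in each library.

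The 30 curated mRNAs under 10 TPM added up to 115 tags in the miR-184 and 142 in the control library, with at most 13 tags for any of them. Of these, 16 had tags in both libraries, 10 were listed at 0 in the miR-184 library and 4 in the control library. The floor of 3 tags, which a true count of 0 allows, stands for 2.22 TPM in the miR-184 and 2.24 TPM in the control library, and a listed 0 that was 1 tag allows more. Only Ip3k and NM_001011569.1 among the 30 were called. The interval of Vha16 left out 0 although it missed the threshold, and for the rest a difference was not detectable at this depth.

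**Figure D4:**
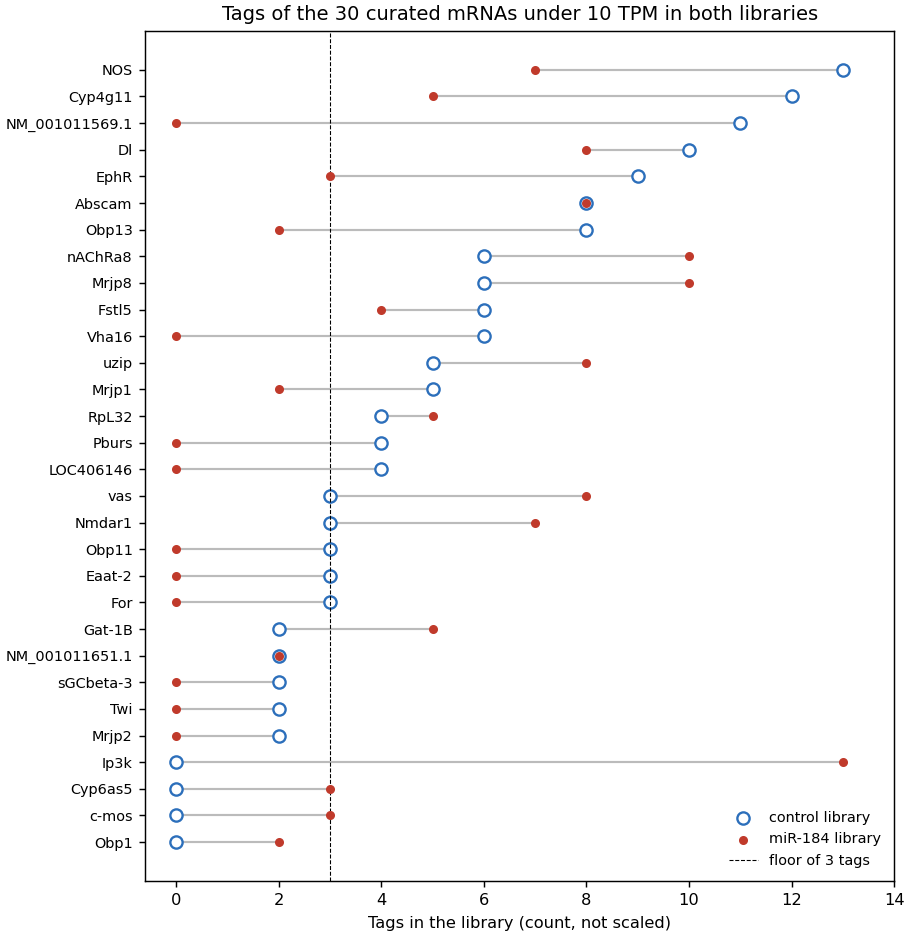
Tags of the 30 curated mRNAs that stayed under 10 TPM, in the control library (open circles) and the miR-184 library (filled circles), with a line between the counts of each mRNA. The dashed line is the floor of 3 tags. Most pairs lie a few tags apart, and the widest gaps are those of Ip3k with 13 tags against a listed 0 and NM_001011569.1 with a listed 0 against 11.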

How the data were processed

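The mRNA profiles of 1 library per condition were made by the authors with a tag profiling kit. To make the counts, the authors aligned the reads to mRNA and genome sequences of the honey bee and kept those with a single place, summed by gene. Which aligner and build were used, and whether rare tags were removed, is not given in the sources used here. The deposited values are whole numbers that the labels call TPM. Their totals differ and exceed 1000000, and they were used as tag counts.

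The members and the role lists were chosen with earlier results of these data known, and the roles were assigned after the counts had been seen. Of the members, 1 is not reported here and was counted only among all mRNAs. Any other may be named. The 8 most abundant, those called and the most abundant of each role with at least 10 TPM are given in full. Ratios used the column totals, with a 0 replaced by 1 tag. The exact tag test of Audic and Claverie, as in the study, was two-sided, ran over all 5924 mRNAs and compares these 2 libraries, not the conditions. edgeR's quasi-likelihood test needs replicates and was not run. Levels of abundance (50, 250 and 1000 tags) were set after seeing the data. PCR tags without molecular identifiers are not independent molecules. Alternatives covered thresholds, filters, scaling, the handling of a 0 and assumed variation between libraries. Python 3.11.15, scipy 1.17.1, R 4.3.3, edgeR 4.0.16 and DESeq2 1.42.0 were used.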

Additional observations from a re-analysis of the deposited data

How the results depend on the processing

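No paired analysis was possible because there was only 1 library on each side, and none could be left out. The 6 calls (3 higher, 3 lower) became 10 (5 and 5) at a 1.5-fold threshold, 2 (1 and 1) at a 4-fold one, and 1 (1 and 0) at a preset variation of 0.4 between libraries, where Ip3k alone was left. The shares of all mRNAs called were 14.5%, 2.57% and 0.371%, beside 15.6%, 3.12% and 1.56% of the set. At 4-fold NM_001011569.1 passed with its 0 taken as 1 tag, and its bound of 3.71 at the floor of 3 tags does not. These thresholds move the number by their construction. Under the other 13 alternatives the number was 4 to 7, with the 3 scalings giving 6 each. The scalings shifted every log2 ratio by at most 0.02, so that they hardly test it. The median log2 ratio of the set, -0.07, was between -0.07 and 0.04. The share of tags, 6.50% (miR-184) and 6.20% (control), was 2.81% and 2.19% without the 10 most abundant mRNAs, 2.19% and 1.70% without HEX70b, and 8.31% and 7.42% with all curated records. Of 960 values for single mRNAs, 8 changed sign, all uncalled and rare. With a 0 replaced by 3 tags the log2 ratio was 0.57 for Mrjp2, Twi and sGCbeta-3, -0.02 for c-mos and Cyp6as5 and -0.60 for Obp1. With DESeq2 size factors it was 0.00 for Abscam and NM_001011651.1.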
